A study of Danio rerio with 96 samples.

Results

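The features described here are those that were nearly silent in most single zebrafish embryos and clearly counted in a few. They were chosen from the counts themselves, in 3 steps: a mean raw count below 50 over all 96 samples, at least 20 counts in 1 to 8 of the 24 single embryos, and fewer than 5 counts in at least 12 of those 24. Of the 3183 features on the panel, 290 met all 3 conditions. The deposited rows carry no gene or probe names, so each feature is called by its row number, counted from 1, nothing can be said of what its gene does, and the labelled tissue could not be checked against marker genes. A feature is called on in a sample that holds at least 20 of its counts, and an embryo in which it is on is called its carrier.

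All 96 samples were whole zebrafish embryos at 120 hours post fertilization, kept in 0.1% dimethyl sulfoxide (DMSO), the solvent used as vehicle control for chemicals. A sample was 1 embryo (pool1) or the joint RNA of 5, 10 or 20 embryos (pool5, pool10, pool20), with 24 samples per pool size in 3 RNA extraction batches of 8. The question behind the design was how many embryos a sample of a dose-response experiment should hold. The strain, the sex and the parents of the embryos are not given in the labels. Batches 1 and 2 of pool1 and all 3 batches of pool5 were exposed from 12 to 17 December and extracted on 17 December. A second December exposure, from 13 to 18 December with extraction on the 18th, gave batch 3 of pool1 together with batch 3 of pool10. Batches 1 and 2 of pool10 were exposed from 2 to 7 November and extracted on 23 and 24 November. The 3 batches of pool20 were exposed from 4 to 9 November and extracted on 23 November, 24 November and 15 December. December samples were thus extracted on the last day of exposure and November samples weeks later, so exposure month, storage and extraction date cannot be told apart between them.

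TempO-Seq measures RNA without copying it first into cDNA. A pair of detector oligonucleotides anneals side by side on a target, is joined by a ligase, and is then amplified and sequenced, so a count is a count of ligated probe pairs. A feature with few counts may come from a gene that is transcribed in few cells, for a short time, or in some animals and not in others, and probe background also adds a low number of counts. Laboratory zebrafish are usually not inbred, so siblings differ in sequence as well as in the exact stage they have reached. A pool averages over its embryos: a transcript that is abundant in 1 animal of a pool is diluted by the RNA of the others, and a transcript that is present in a share of animals turns up in most pools once these are large enough.

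Total counts ran from 3336312 to 6441627 per sample, so a feature at 0 counts may have had up to 3, which is 0.899 CPM (counts scaled to a library total of 1000000) in the smallest library and 0.466 CPM in the largest. These limits cover counting error only. Sample 6 was the deepest library in all 12 batches.

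Most rare features had few carriers and modest counts. In whole embryos, fewer cells of a type and less RNA per cell cannot be told apart. Of the 290 features, 116 (40%) were on in 1 embryo, 65 in 2, 51 in 3, 32 in 4, 11 in 5, 11 in 6, 3 in 7 and 1 in 8. The highest count that a feature reached in any single embryo had a median of 30 and an interquartile range of 24 to 42. For 146 features it was at most 30, for 54 it reached 50, and for 15 it reached 100. The top embryo held between 11.8% and 97.7% of a feature's counts over the 24 embryos, with a median of 24.4%. The mean count over all 96 samples ran from 1.51 to 44.3, with a median of 15.2.

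These values follow from the rule and are given as a description. At its edges, 1 feature had 8 carriers, against 4 that had 9 or 10 and met the other conditions. Another 35 features were below 5 counts in exactly 12 embryos, against 21 left out with 11 such embryos. The highest single-embryo count was 20 or 21 for 30 features, against 18 or 19 for 32 that were left out. A mean of 50 or more kept out 10 features that met both other conditions, and 2 of those had a mean between 50 and 55.

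Feature 1482 gave the highest single-embryo count. It had 723 counts in sample 6 of batch 3, 65 in sample 3 of batch 3, 40 in sample 7 of batch 2 and at most 10 in each of the other embryos, with a median of 1. The first of these embryos held 84.4% of all its single-embryo counts, at 136 CPM. Feature 2759 had 431 counts in sample 3 of batch 1 and at most 13 in any other embryo. That embryo, its only carrier, held 82.1% of its single-embryo counts.

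Features 1553 and 40 were spread over 5 carriers each. Feature 1553 had 359, 146, 139, 82 and 52 counts in its carriers, of which 2 were in batch 1 and 3 in batch 2, and at most 2 counts in any embryo of batch 3. Feature 40 had 246, 153, 128, 82 and 59 counts, with carriers in all 3 batches. Feature 971 had 311, 347 and 58 counts in samples 1, 7 and 8 of batch 1, and at most 3 counts in each of the 16 embryos of the other batches. Feature 440 was on in 8 embryos, more than any other of the 290, with a highest count of 165 and carriers in all 3 batches.

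**Figure D1:**
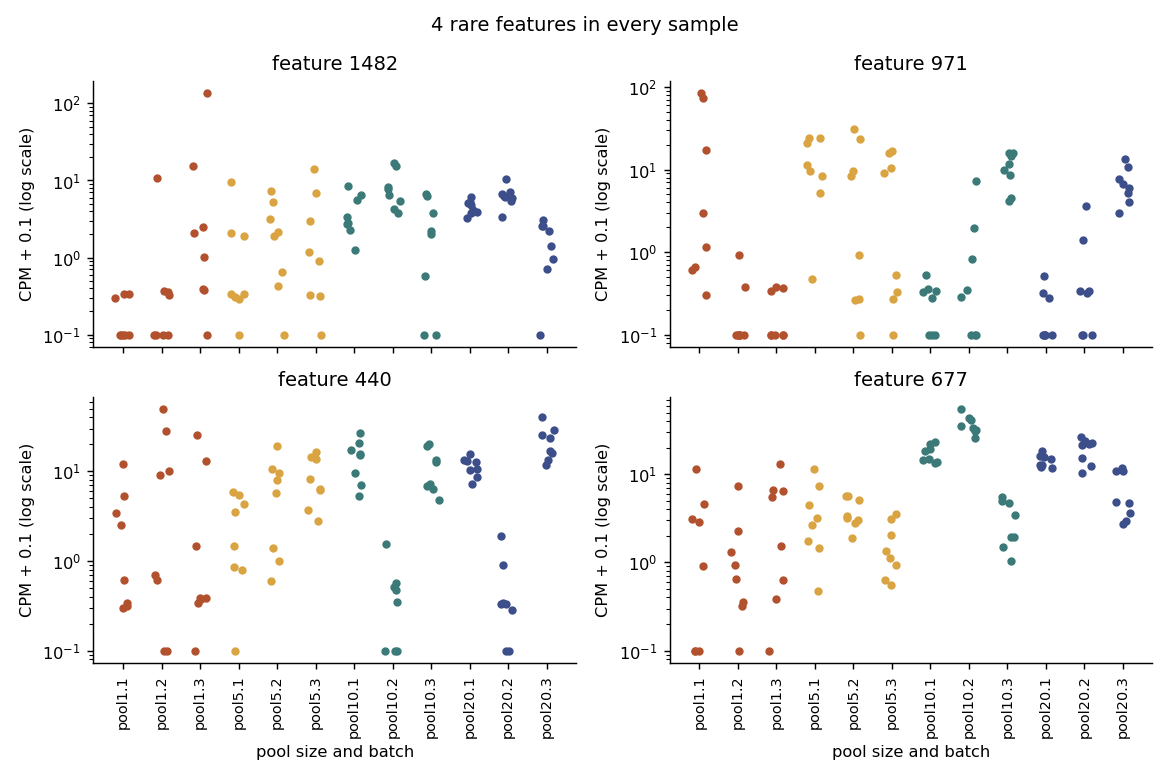
Level of features 1482, 971, 440 and 677 (CPM with 0.1 added, vertical axis, log scale) in every sample, by pool size and batch (horizontal axis, one point per sample, points at 0.1 are samples with no count). Single embryos are mostly near 0 with a few high points. Feature 971 is near 0 in most November pool10 samples, with sample 6 of batch 2 at 7.17 CPM. Feature 440 is near 0 in both batches extracted on 24 November.

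Every single embryo carried some of the rare features. The number on per embryo ran from 11 to 78, with a median of 23, and the 677 pairs of a feature and its carrier were spread over all 24 embryos. In batch 1 the 8 embryos had 23, 15, 37, 20, 30, 41, 38 and 45 features on. In batch 2 they had 12, 11, 20, 23, 13, 42, 22 and 17, and in batch 3 they had 20, 17, 27, 78, 12, 61, 28 and 25. By raw counts batch 2 was lowest, with a mean of 20 per embryo, against 31.1 in batch 1 and 33.5 in batch 3, and the 3 ranges overlapped. These numbers depend on library depth. With counts brought to equal library totals, they ran from 17 to 54 in batch 1, 18 to 39 in batch 2 and 22 to 78 in batch 3.

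Samples 4 and 6 of batch 3 had the most features on by raw counts, and with counts scaled for depth this held for sample 4 alone. Sample 4 had 78 features on in a library of 4417589 counts, was the sole carrier of 19 and the highest embryo for 44. Sample 6 had 61 features on in a library of 5317549 counts, was the sole carrier of 9 and the highest embryo for 25. Their rare features summed to 951 and 798 CPM, the 2 highest of the 24. They also had more of the other features at 5 counts or more, 2702 and 2687 of 2893, against 2408 to 2643 in the other 22 embryos. In batch 1, samples 5 to 8 averaged 38.5 features on, against 23.75 in samples 1 to 4. Without samples 4 and 6, the mean of batch 3 was 21.5 features on per embryo, the highest embryo of all had 45, and 258 of the 290 features kept at least 1 carrier. With the same 290 features and counts brought to equal library totals, sample 4 had 78 on and sample 6 had 45, fewer than the 54 of sample 8 of batch 1. With the rule itself applied to scaled counts, sample 4 had 75 on and the next embryo was again sample 8 of batch 1, with 56.

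**Figure D2:**
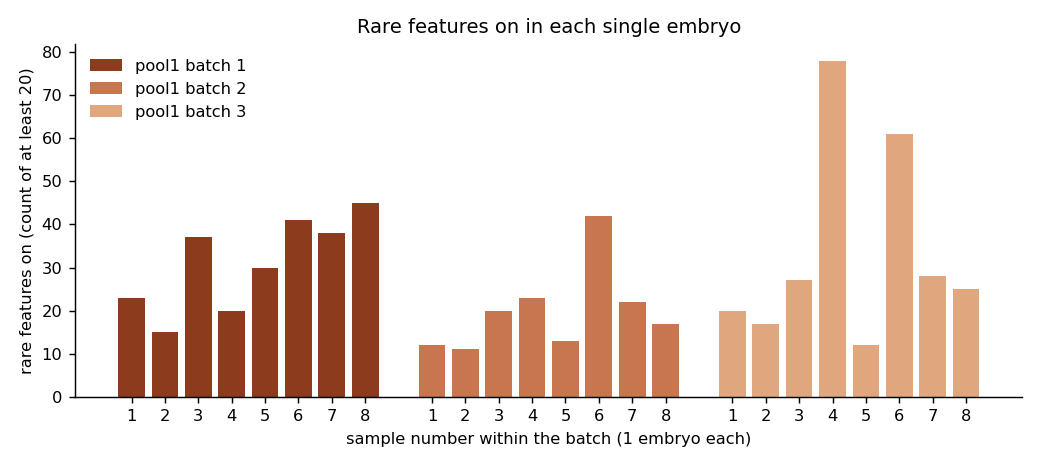
Number of the 290 rare features with at least 20 counts (bar height) in each of the 24 single embryos (horizontal axis, by batch). Samples 4 and 6 of batch 3 reach 78 and 61, and the other embryos lie between 11 and 45.

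The rare features were not confined to 1 batch. Batch 1 held carriers of 165 features, batch 2 of 123 and batch 3 of 162. In all, 159 features were on in 1 batch only, of which 116 had a single carrier and could not be on in more. Of the 174 features with at least 2 carriers, 131 had them in 2 or 3 batches and 43 in 1 batch, and 29 features were on in all 3 batches.

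Embryos shared few of their rare features. Over the 276 pairs of embryos, the median number of features on in both was 2, and 268 pairs shared at most 10. The largest overlap joined samples 4 and 6 of batch 3, the 2 embryos with the most features on by raw counts. They shared 26 features, 33.3% of the 78 on in sample 4 and 42.6% of the 61 on in sample 6. Sample 4 shared 18 features with sample 7 of the same batch, 23.1% of its own and 64.3% of those of sample 7. Within batch 1 the largest overlaps were 12 features between samples 7 and 8 and 11 between samples 5 and 8. The largest overlap between batches was 13 features, between sample 6 of batch 3 and sample 6 of batch 1, both deep libraries. The shared share of the union had a median of 0.0417 and a maximum of 0.23.

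**Figure D3:**
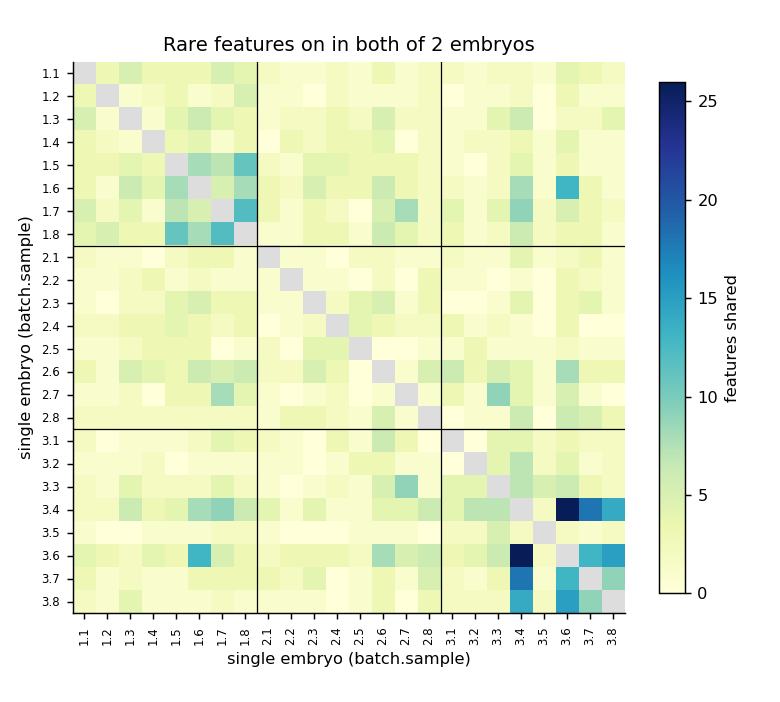
Number of rare features on in both embryos (colour) for each pair of the 24 single embryos (both axes, by batch). The highest value, 26, joins samples 4 and 6 of batch 3, and most pairs share 2 or fewer.

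Seen from the features, most pairs had no carrier in common, which a rule that allows few carriers favours. Among the 41905 pairs of rare features, 10665 shared at least 1 carrier and 31240 shared none. Among the 109 features with at least 3 carriers there were 5886 pairs, of which 2438 shared none, 235 shared at least 0.5 of the union of their carriers, and 15 had exactly the same carriers. When features that shared at least 0.5 of the union were linked and the links chained, 82 of the 109 fell into 1 group, 2 groups held 2 features each and 23 features were linked to none.

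The group of 82 was loose. Of its 3321 pairs only 233 were linked directly, and 1261 had no carrier in common. Of its features, 42 were on in sample 4 of batch 3, 35 in sample 6, 22 in both and 27 in neither. Without these 2 embryos, 73 features had at least 3 carriers and the largest group held 40. Feature 677, one of the 82, had 57, 34, 23 and 23 counts in samples 4, 6, 7 and 8 of batch 3, with further carriers at 47 counts in batch 1 and 24 in batch 2. Feature 2440 of the same group had 7 carriers in all 3 batches, with 20 to 64 counts, and neither of the 2 embryos was among them.

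The small groups crossed batches as well. Features 391 and 494 were both on in sample 8 of batch 1 and in samples 4 and 6 of batch 2, with 22, 47 and 20 counts for feature 391 and 20, 28 and 32 counts for feature 494. Features 1242 and 3055 were both on in 4 embryos of 3 batches: sample 6 of batch 1, sample 6 of batch 2, and samples 1 and 6 of batch 3. Feature 1242 had 63, 25, 24 and 32 counts in these embryos, and feature 3055 had 25, 21, 22 and 21. In 3 of the 4 the embryo was sample 6, the deepest library of its batch.

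The features outside the set whose levels over the 24 embryos were most like the mean of the 82 were 2022, 1473, 3070, 2745 and 2445, with Pearson correlations of log2 CPM between 0.79 and 0.84. Without samples 4 and 6 of batch 3 the correlations were 0.67, 0.71, 0.72, 0.71 and 0.55 in the same order. Each of these points is 1 library, and depth is shared by all features of a library. Features 2022, 3070, 2745 and 2445 were on in no embryo and below 5 counts in 19 to 23 of the 24, so their correlations rest on few counts. Feature 1473 was abundant. Its median was 161 CPM, its lowest embryo held 88.6 CPM, and its 2 highest embryos were again samples 4 and 6 of batch 3, at 1377 and 1022 CPM.

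Pairs of features with shared carriers were also closer in the pools, which the rule's conditions on single embryos did not use. Over the 72 pool samples, with the batch mean taken out of log2 CPM, the median correlation was 0.18 for the 235 pairs that shared at least 0.5 of the union, against 0.08 for the 2438 pairs that shared none. In pool5 the medians were 0.16 and 0.03, in pool10 0.25 and 0.15, and in pool20 0.22 and 0.12, over 24 samples each. All of these correlations are weak, and the pairs share libraries and depth. In the single embryos, where the pairs were chosen, the medians were 0.37 and -0.05.

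The level of the rare features differed more between November and December exposures than between pool sizes within December. Their summed level averaged 435 ± 121, 373 ± 74.4 and 573 ± 205 CPM in the 3 batches of pool1 and 505 ± 110, 453 ± 99.3 and 340 ± 36.8 CPM in those of pool5 (SD, n = 8 each). In pool10 it was 398 ± 68.3 CPM in the December batch, against 3598 ± 1007 CPM in the November batch extracted on the 24th and 1892 ± 462 CPM in the one extracted on the 23rd. In pool20 it was 1426 ± 119 CPM for extraction on 23 November, 2219 ± 390 CPM on 24 November and 883 ± 242 CPM on 15 December. Every sample of the 2 November pool10 batches lay above every sample of the December exposures, of any pool size. The pool20 batch extracted on 15 December, a November exposure, ran from 565 to 1359 CPM. It overlapped the December exposures, whose highest sample was a single embryo at 951 CPM. Low counts in most single embryos were required by the rule.

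**Figure D4:**
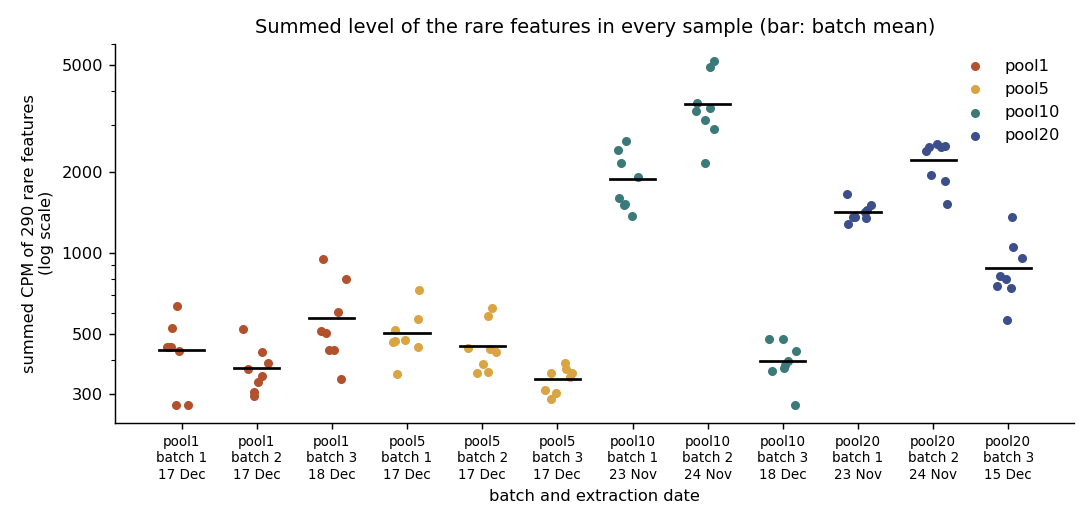
Summed level of the 290 rare features in CPM (vertical axis, log scale) in each sample, with a bar at the batch mean, by batch and extraction date (horizontal axis). All December exposures, in pool1, pool5 and pool10 batch 3, have means between 340 and 573 CPM, and the November batches have means between 883 and 3598 CPM.

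As a share of all counts, the 290 features made up 0.046% in single embryos, 0.0433% in pools of 5, 0.196% in pools of 10 and 0.151% in pools of 20. The value for pools of 10 averages December and November batches. Single embryos and pools of 5 were all December exposures, and pools of 20 all November. The number on per sample ran from 5 to 70 in pool5 (median 21) and from 3 to 23 in December pool10 (median 14.5). In November pool10 it ran from 124 to 243 (median 190), and in pool20 from 27 to 218 (median 146.5). These are raw counts and depend on library depth. With counts brought to equal library totals, the number ran from 5 to 49 in pool5 and from 6 to 21 in December pool10. So scaled, it ran from 124 to 241 in November pool10 and from 21 to 221 in pool20. In pool5, 163 of the 290 were on in at least 1 of 24 samples, 8 in at least 12 and 0 in all. In the 8 December pool10 samples 47 were on in at least 1, 8 in at least 4 and 0 in all. In the 16 November pool10 samples these numbers were 266 in at least 1, 208 in at least 8 and 71 in all. In the 24 pool20 samples they were 266 in at least 1, 151 in at least 12 and 1 in all. At least 5 counts were seen for a mean of 94.2 features per single embryo, 149 in pool5, 134 in December pool10, 264 in November pool10 and 251 in pool20.

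Pools and single embryos of the same exposure could be set side by side, although the single-embryo level of these features was fixed by the rule, so no test is given. Between pool5 and pool1 of the 12 December exposure, the median log2 ratio of mean CPM was 0.08 for the rare features, with 156 higher and 134 lower in pool5, and -0.12 over all features. Between pool10 and pool1 of the 13 December exposure it was -0.40, with 89 higher and 201 lower in pool10, and -0.10 over all features. The second pair compares batch 3 of pool10 with batch 3 of pool1. That pool1 batch holds the 2 embryos with the most rare features on by raw counts. The values here are log2 ratios with 0.25 CPM added to both means.

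The median spread between samples of a batch, beyond counting error, was lower at each larger pool size for the rare features. Among features with a mean of 10 to 50 counts in that pool size, the median dispersion (the squared coefficient of variation beyond counting error) of rare features was 1.56 in pool1, then 0.317 in pool5, then 0.162 in pool10 and finally 0.122 in pool20. These medians rest on 44, 52, 191 and 231 features, so the features compared differ between pool sizes. Pool1 and pool5 were all December exposures and pool20 was all November. Pool size and exposure month thus cannot be told apart over this series. For the other features in the same range of counts the medians were 0.542, 0.172, 0.116 and 0.0884. The pool1 value follows from the rule. In the pools the rare features stayed more variable, with a lower median count in the range (12.3 against 24.8 in pool5, 23.4 against 30.6 in pool10 and 22 against 29.97 in pool20).

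Neither pool size contrast that keeps the exposure month fixed gave a rare feature past the threshold. In both, the pool sizes came from different exposures of that month. In December pool10 was exposed from the 13th and pool5 from the 12th, and in November pool20 from the 4th and pool10 from the 2nd. Pool size and exposure thus cannot be told apart in either contrast. These contrasts were tested with edgeR's quasi-likelihood F test on batch sums, each the added counts of the 8 samples of a batch, over 3168 features, and a feature was called at a Benjamini-Hochberg adjusted p under 0.05. All 290 features passed its filter on low counts, which a feature can pass through its counts in the November pools. For pool10 against pool5 among December exposures, 1 batch sum against 3, edgeR called 0 of the 290, with percent called 0 over all features. There 1 of the 290 and 29 of all features had an unadjusted p under 0.05, DESeq2 called 0 of the 290, and the median log2 change was -0.05 for the rare features and 0.05 for all. For pool20 against pool10 among November exposures, 3 batch sums against 2, edgeR again called 0 of the 290, with percent called 0 over all features. Here 8 of the 290 and 92 of all features had an unadjusted p under 0.05, and DESeq2 called 0 of the 290. In pool20, 247 of the 290 were lower and 43 higher, with a median log2 change of -0.54 against -0.03 over all features. This median depended on single batches. It was -0.11 without batch 2 of pool10, with 175 lower and 115 higher, and -0.90 without batch 2 of pool20. Batch 3 of pool20 was extracted in December and both pool10 batches in November. Extraction date was thus not fixed in this contrast, and the shift cannot be assigned to pool size. With single samples in place of batch sums, which leaves batch differences in the pool size contrast, 276 of the 290 passed the filter. In that fit edgeR called 2 of them in the December contrast, both higher in pool10, with percent called 5.74 over all features and 4.64 for lower. In the November contrast it called 86 of them, with percent called 31.4 over all features, and 81 of these were lower in pool20, with percent called lower 14.2 over all features.

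Within pool10, 79 of the 290 rare features (27.2%) were called lower in the December batch than in the November batches and 0 were called higher, at an adjusted p under 0.05 in edgeR's quasi-likelihood test on batch sums. Over all features percent called was 11 for lower, 12.1 for higher and 23.2 for either direction. The median log2 change of the 290 was -2.20, with 266 lower and 24 higher in December, against -0.10 over all features, and 171 of the 290 had an unadjusted p under 0.05. The rule asks for low counts in single embryos, all of which were December exposures, so low levels in December were in part required of these features. Features that never reached 20 counts in a single embryo but had a mean below 50 were called lower in 73 of 238 cases, with a median log2 change of -3.01. Low levels in December were in part required of this set too, and its features can pass the filter through the November pools. Features with that low mean and more than 8 carriers were called lower in 19 of 252 cases, with a median of -0.34. Among the rare features, 34 of 116 with 1 carrier, 20 of 65 with 2 and 25 of 109 with 3 or more were called lower.

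The count of 79 rests on 1 December batch against 2 November batches, and the lone December sum is assumed to vary like the sums of the other groups. With batch 2 of pool10 or batch 2 of pool5 left out, each alone, the count was 0, with percent called lower 0 and 0.0632 over all features. It was 44 lower and 2 higher without batch 1 of pool20, with percent called lower 6.19 over all features, and 123 lower and 4 higher without batch 3 of pool20, with 15.5. DESeq2 called 157 lower and 3 higher, with percent called lower 19.8 over all features. With single samples 216 were lower and 6 higher, with percent called lower 40.1, and with the batch number as a block 1 was lower, with 0.158.

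Feature 2809, the rare feature with the smallest adjusted p in this contrast, had 12, 3, 1, 5, 6, 2, 2 and 2 counts in the December pool10 samples. In November it had 173, 142, 204, 216, 104, 108, 121 and 47 counts in the batch extracted on the 24th, and 107, 53, 187, 109, 40, 52, 31 and 66 in the one extracted on the 23rd. All 16 November samples were above all 8 December samples. Its log2 change was -3.91 ± 0.72 (SE), 15.0-fold lower in December, with an adjusted p of 0.0266 in edgeR. It had been on in 1 embryo, at 20 counts.

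Feature 2982 was likewise lower in December than in November pool10, and had its carriers in batch 3 of pool1 only. It had 2 to 8 counts in December pool10 (median 4.5), against 53 to 319 in November pool10 (median 124.5). The single embryos of the same December exposure, batch 3 of pool1, were not as low. All 8 held 6 to 47 counts, at a mean of 5.37 CPM, against 0.97 CPM in December pool10. In pool20 feature 2982 had 5 to 115 counts (median 57.5), with medians of 65.5, 67 and 14 in batches 1, 2 and 3. Of these batches, batch 3 was extracted in December. Its log2 change between December and November was -4.18 ± 0.95 (SE), with an adjusted p of 0.0281 in edgeR. Feature 2172 had 0 to 3 counts in December pool10, against 28 to 148 in November pool10, a log2 change of -4.50 ± 0.96 (SE) with an adjusted p of 0.0281 in edgeR. Within pool10, neither feature had overlapping counts between the months. Feature 1034 averaged 0.747 ± 0.892 CPM in December pool10 (SD, n = 8) and 10.7 ± 3.71 CPM in November pool10 (SD, n = 16). Its log2 change was -3.03 ± 0.59 (SE), with an adjusted p of 0.0281 in edgeR, although in a single embryo it had reached 96 counts. The highest adjusted p of these 4 features over the alternatives was 0.128.

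**Figure D5:**
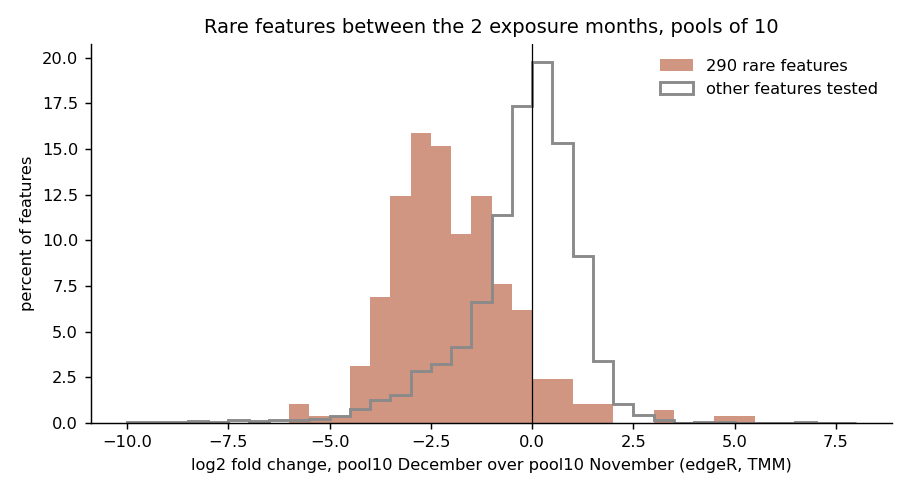
Distribution of edgeR's log2 change between the December and the November pool10 batches (horizontal axis, negative when lower in December) for the 290 rare features and for the other features tested (vertical axis, share of features in percent). The rare features centre at -2.20 and all features at -0.10.

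Measured as a plain ratio of mean CPM with 0.25 CPM added, 193 of the 290 features were at least 4-fold lower in December pool10 than in November pool10, and 3 were at least 4-fold higher. Of the 3177 features not at 0 throughout, 21.4% were at least 4-fold lower and 0.472% at least 4-fold higher. The median ratio of November over December was 6.20-fold, with a log2 value of 2.63 for the rare features against 0.86 over all features. With TMM scaling, edgeR's correction for a few features taking a large share of counts, these were 2.07 and 0.26. Under both scalings the median of the rare features lay above that of all features. It lay below that of features with a mean below 50 that were never on in a single embryo, at 2.75 and 2.27. Features with that low mean and more than 8 carriers were at 1.10 and 0.50.

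The 3 features that went the other way were 971, 459 and 1524, chosen here after their values were seen. Feature 971 had 49, 17, 48, 75, 63, 84, 19 and 33 counts in the December pool10 samples, against 3, 0, 1, 0, 1, 40, 0 and 8 in the November batch extracted on the 24th and 0 to 2 in the one extracted on the 23rd. In pool20 it had 0 to 2 counts for extraction on 23 November, 0 to 14 on 24 November and 14 to 71 on 15 December. In the 24 pool5 samples, all December exposures, it ran from 0 to 164 counts with a median of 42.5, and 15 of the 24 were on. Its pool5 samples were either low or high: in batch 3 they had 2, 76, 95, 0, 44, 1, 48 and 1 counts. The months overlapped in pool10 through the November sample at 40 counts. The log2 change between December and November pool10 was 4.57 ± 1.73 (SE), with an adjusted p of 0.0753 in edgeR, so it was not called.

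Feature 1524 averaged 3.95 ± 1.3 CPM in December pool10 (SD, n = 8) and 0.162 ± 0.286 CPM in November pool10 (SD, n = 16), and was at 0 in all 8 samples of the batch extracted on 24 November. In pool20 it averaged 0.417 ± 0.562 CPM for extraction on 23 November, 0.292 ± 0.338 CPM on 24 November and 5.11 ± 2.37 CPM on 15 December (SD, n = 8 each). Feature 459 averaged 7.67 ± 3.28 CPM in December pool10 and 1.50 ± 2.18 CPM in November pool10. The adjusted p in edgeR was 0.0726 for feature 1524 and 0.0811 for feature 459, so neither was called. For all 3 features, the pool20 batch that was extracted in December had the highest mean of the pool20 batches, although its embryos were exposed in November.

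Among November exposures, rare features were mostly higher in the batches extracted on 24 November than in those extracted on 23 November. This contrast was added after the data were seen and was tested with edgeR on the 8 against 8 single samples of each pool size, so its p-values measure the spread between samples within a batch, and day and batch cannot be told apart. In pool10, 168 rare features were called higher and 5 lower on the 24th, of 268 that passed the filter, with percent called 25.3 for higher, 26.9 for lower and 52.2 for either direction over all 3086 features tested. In pool20, 132 were called higher and 2 lower, with percent called 19.5 for higher, 17.8 for lower and 37.4 for either direction. The median log2 change was 0.82 in pool10 and 0.67 in pool20 for the rare features, against 0.02 and 0.04 over all features. In both pool sizes 111 features were called higher and 2 lower, features 440 and 2541, and 0 were called in opposite directions. Over all features percent called in both pool sizes was 14.1 for higher and 15.8 for lower. Feature 2541 had a log2 change of -1.27 ± 0.48 (SE) in pool10 and -1.93 ± 0.50 (SE) in pool20, with adjusted p of 0.0255 and 0.00257 in edgeR. By mean CPM alone, 246 of the 290 were higher on the 24th in both pool sizes and 20 lower in both, against 1565 and 1018 of the 3177 features not at 0 throughout. Features with a mean below 50 that never reached 20 counts in a single embryo moved the same way. Of these, 116 of 179 were called higher in pool10 (median log2 change 0.94) and 85 of 179 in pool20 (median 0.77). A feature can pass the filter through the batch in which it is high. Without the filter, 137 of 244 were called higher in pool10 and 94 of 244 in pool20. The 2 pool sizes hold different embryos from different exposures.

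Feature 440, the one with 8 carriers, went most strongly against this. In pool10 it had 6, 0, 2, 2, 0, 0, 1 and 2 counts in the samples extracted on 24 November, against 66, 110, 104, 45, 65, 38, 23 and 67 in those extracted on 23 November. In pool20 it had 0, 3, 0, 8, 1, 1, 1 and 1 counts on 24 November, against 58, 61, 72, 82, 49, 42, 42 and 48 on 23 November. The groups did not overlap in either pool size. Its log2 change was -5.39 ± 0.47 (SE) in pool10, with an adjusted p of 2.01e-11 in edgeR, and -4.64 ± 0.47 (SE) in pool20, with an adjusted p of 8.16e-10 in edgeR. Over the 3 extraction dates of pool20 it averaged 11.4 ± 2.73 CPM on 23 November, 0.433 ± 0.596 CPM on 24 November and 22 ± 9.69 CPM on 15 December (SD, n = 8 each). It is the single feature of the 290 that was at least 4-fold lower on the 24th by mean CPM in both pool sizes.

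Feature 295, chosen after its values were seen, went the opposite way. In pool10 it had 4 to 31 counts in the samples extracted on 24 November (median 16.5), against 0 or 1 in those extracted on 23 November. In pool20 it had 3 to 17 counts on 24 November (median 7), against 0 or 1 on 23 November. Its log2 change was 5.24 ± 0.63 (SE) in pool10, with an adjusted p of 2.48e-08 in edgeR, and 4.67 ± 0.67 (SE) in pool20, with an adjusted p of 1.16e-06 in edgeR. Counts of 0 or 1 are at the detection limit, so the size of this change depends on how the model treats low counts. In single embryos it was on in 3, with a highest count of 40, and at 0 in 18.

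Of the 6 features with the highest single-embryo counts, feature 440 passed its highest embryo (165 counts) in raw counts, with 214 in a pool20 sample. Scaled for depth no pool sample passed that embryo. The highest pool20 sample had 40.6 CPM, against 49.5 CPM in the highest single embryo. Features 1482 and 2759 stayed far below their highest embryos in the pools. Feature 1482 averaged 2.60 ± 2.62 CPM in December pool10 (SD, n = 8) and 6.25 ± 4.44 CPM in November pool10 (SD, n = 16). In pool5 it ran from 0 to 66 counts (median 4.5) and in pool20 from 0 to 46 (median 19.5), so that no pool came near its 723 counts in 1 embryo. Feature 2759 ran from 0 to 57 counts in pool5 (median 4), from 0 to 7 in December pool10 (median 3), from 9 to 82 in November pool10 (median 34) and from 3 to 44 in pool20 (median 20). Its embryo with 431 counts thus exceeded every pool, and its pool5 median was below its November medians. Neither was called between December and November pool10.

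Feature 677 had the highest mean of the 290 features in pool20, 13.3 ± 6.73 CPM (SD, n = 24). It averaged 3.05 ± 1.78 CPM in December pool10 (SD, n = 8), against 37 ± 9.26 and 17.4 ± 3.94 CPM in the pool10 batches extracted on 24 and 23 November (SD, n = 8 each). Its log2 change between December and November was -2.35 ± 0.74 (SE), with an adjusted p of 0.0472 in edgeR. It was higher on the 24th than on the 23rd in both pool sizes, by 0.92 ± 0.15 in pool10 and 0.44 ± 0.15 in pool20 (log2, SE), with adjusted p of 4.68e-06 and 0.0226 in edgeR.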

How the data were processed

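What was deposited by the authors is 1 table of whole-number counts of reads, 3183 probe features by 96 samples, not normalized and without row names. Per the submitters' processing notes, the software included STAR 2.7.10a and RSEM 1.3.3 beside bcl2fastq 2.20, fastp 0.23.2 and DESeq2 1.31.15. Which step made the counts, and on which build, is not stated there. All columns were used, and 6 rows were 0 throughout. Groups came from the labels. Dishes and clutches are not labelled, so a p-value covers variation between these samples only, and that variation may be technical. The members, lists and tests were chosen with earlier results of these data known.

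CPM are counts scaled to a library total of 1000000. Tests used edgeR 4.0.16 in R 4.3.3 (quasi-likelihood F test, filter on low counts, TMM, Benjamini-Hochberg over all features tested) on 9 batch sums, and on single samples for the extraction days. An SE is the log2 change over the square root of F. The tests were checked on simulated data with known changes; on batch sums most 2-fold changes were missed, so 0 calls there say little about changes of that size. The replicate block on batch sums used the batch number of all 9 sums, so it also grouped batches of different extraction days. Among these sums, batches of equal number share an extraction day only in pool10 and pool20, on 23 or 24 November, per the labels. Deviations of those batches from the mean of November pool10 or of pool20 correlated at 0.39 and 0.82. Pool10 batch 1 and pool20 batch 3, which share neither number nor day, gave 0.44. The deviations of the 2 November pool10 batches mirror each other, and those of the pool20 batches cancel out. The correlations are thus tied to one another and cannot decide whether the pairs stand out. Features named are the 6 highest in a single embryo, the 6 highest in pool20, the highest of each pool size, the 3 largest linked groups (up to 8 each), up to 8 called with the smallest adjusted p per contrast, and 5 most like the largest group. Those named after their values were seen are marked. Alternatives were DESeq2 1.42.0, its size factors, no filter, single samples, a replicate block, leaving out batches, and other thresholds in the rule.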

Additional observations from a re-analysis of the deposited data

Results flagged for a closer look

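A sample far from the other 7 of its batch was looked for in 90 groups of 8, by the gap to its nearest neighbour over the whole range, and 11 were found, all on the high side. A chance rate of about 1 in 20 groups holds for normally distributed values. Low counts are skewed to the high side, and the single features flagged here are those with the highest single-embryo counts. The 11 thus cannot be judged against that rate, and no excess over chance is claimed. The number of rare features on was 42 in sample 6 of pool1 batch 2, against 11 to 23 in the other 7, and 70 in sample 6 of pool5 batch 2, against 17 to 40. Both are the deepest library of their batch. With counts brought to equal library totals, the number was 39 in the pool1 sample, against 18 to 34 in the other 7. In the pool5 sample it was 27, against 8 to 32. The part of depth in the numbers was not tested.

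Among single features in pool5, feature 1482 had 9.58 CPM in sample 2 of batch 1, against 0 to 1.97 in the others. Feature 2759 had 11.2 CPM in sample 3 of batch 1, against 0 to 2.34. Feature 1553 had 33.1 CPM in sample 6 of batch 2, against 0.18 to 11.2. Feature 40 had 7.71 CPM in sample 3 of batch 2, against 0.186 to 1.86.

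In batch 2 of pool10, feature 40 had 27.3 CPM in sample 1, against 6.39 to 14.5, feature 440 had 1.44 CPM in sample 1, against 0 to 0.466, and feature 971 had 7.17 CPM in sample 6, against 0 to 1.86. In batch 2 of pool20, feature 971 had 3.55 CPM in sample 1, against 0 to 1.32, and feature 440 had 1.78 CPM in sample 4, against 0 to 0.791. The values of feature 440 in these batches rest on 6 and 8 counts.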

How the results depend on the processing

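Under the other thresholds and scalings of the rule, the number of rare features ran from 226 to 393, except that asking for 40 counts in a carrier left 87; counts scaled to a common total gave 308, of which 273 were among the 290. The embryo with most features on had 78; the highest embryo had 148 with on at 10 counts, 19 with on at 40 counts, and 45 without samples 4 and 6 of batch 3, an alternative added after the data were seen.

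In both directions together, the 79 calls between December and November pool10 were 160 in DESeq2 and 222 with single samples as replicates, and ran from 0 to 127 when 1 batch sum was left out. Percent called was 55.2 for the rare features and 38.8 over all features in DESeq2, and 80.4 and 72.3 with single samples. With batch number as a replicate block the count of calls was 1, with percent called 0.789 over all features. The number 3 batches share no extraction day across pool5, pool10 and pool20. Batches 1 and 2 of pool5 share none with those of pool10 and pool20. That block thus pairs samples only in part. In pool10 against pool5 the 0 calls were 2 with single samples (5.74% of all features), and in pool20 against pool10 they were 86 (31.4% of all features); the replicate block left both at 0. No other count of calls moved by over 1.5 times under a block. The cause of each difference was not tested. The extraction-day counts of 173 and 134 were 178 and 136 with the sample number as replicate block, and ran from 178 to 183 and from 133 to 148 over all 4 alternatives. Large shares of all features were also called between the days, as given with these contrasts above. The counts alone thus do not set the rare features apart from the panel. For the changes of named features that were called, recomputed under each alternative, 148 still passed the threshold and 47 did not between the months, 104 passed for the days in pool10, and 78 passed and 2 did not for the days in pool20; 0 reversed. Without batch 3 of pool10 neither contrast with the December pool10 batch could be fitted.

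Precision is limited by depth, since most rare features hold under 50 counts in any embryo, and by the single December pool10 batch.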
